A study of Mus musculus with 8 samples.

Results

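Nr5a2 encodes LRH-1, the orphan nuclear receptor whose gene was deleted in this mouse series, and it is followed here through 1 row of the RNA tables, the transcript ENSMUST00000027649, out of 110473 transcripts. The row was taken by its identifier, is 4733 bases long and is present in all 12 tables. The pairing of this identifier with Nr5a2 comes from outside the tables, since the name tables used here hold 0 transcript identifiers, so it was not checked. For the same reason no other Nr5a2 transcript was added. RefSeq lists 4 transcripts and 2 start windows for the gene, on chromosome 1, and kallisto divides shared reads among the transcripts of a gene, so each value below is that of 1 transcript and not of the gene.

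LRH-1 binds DNA as a monomer at a single extended nuclear receptor site, as does its paralog SF-1 (Nr5a1), and both regulate steroid-producing enzymes. In the ovary LRH-1 is found mainly in granulosa cells, the somatic cells around the oocyte, and mice that lack it there do not ovulate. In a deletion design the level of the targeted transcript can be set beside the genotype labels, a limited check where exons remain after recombination.

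The RNA came from granulosa cells of mice aged 22 to 25 days, obtained by ovarian puncture, as 3 libraries in each of 4 groups. Mice labelled cKO were Nr5a2 f/f and carried Amhr2 Cre/+, a Cre recombinase driven from the gene of the anti-Müllerian hormone receptor, which is active in granulosa cells from the primary follicle onward. Mice labelled CTL were Nr5a2 f/f without the Cre, so the floxed gene was present in both genotypes, although a further label gives them as LRH-1 +/+ and LRH-1 -/-. Follicles were brought to growth in every mouse by 5 IU of equine chorionic gonadotropin (eCG). The ovulatory signal was 5 IU of human chorionic gonadotropin (hCG), injected 44 h later. Granulosa cells were taken at 0 h (before hCG) or 4 h after hCG. The labels do not state whether the 3 libraries of a group had separate donor mice. Tests below rest on a spread between libraries that may be technical. The labels do not say which exons are floxed. Reads from exons that remain after recombination would still be counted in this row, and so would RNA of cells in which Cre is not active. Markers of granulosa or other ovarian cells could not be looked up by transcript identifier, so the labelled cell type was not checked. In bulk RNA, fewer cells that express a gene and less RNA per cell cannot be told apart.

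Total estimated counts ran from 9250965 to 23753060 per library. The Nr5a2 row held from 31.9 to 2966 estimated counts, and its effective length stayed between 4512 and 4586 bases. Levels are given in TPM, a share of all transcripts that is scaled by transcript length. Earlier work on these tables had found that replicate 1 of CTL before hCG, CTL after hCG and cKO before hCG stand apart from the rest. Over 14053 transcripts, these libraries correlated with each other at a mean r of 0.393 to 0.459, and with the other libraries at 0.175 to 0.234. Replicate 2 of CTL after hCG was also unlike the rest, at 0.203 with the other libraries and 0.153 with these 3. Genotype results are also given without the 3 libraries, and without each library in turn.

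Before hCG the Nr5a2 transcript did not set the libraries labelled cKO apart from CTL. The level of this row thus did not bear the genotype labels out. It cannot decide whether the gene was recombined, since the floxed exons are not stated and reads from remaining exons still count. Whether labels and tables match was not tested. CTL libraries before hCG stood at 44.7, 9.53 and 7.05 TPM in replicates 1, 2 and 3 (mean 20.4 ± 21.1, SD, n = 3). Libraries labelled cKO stood at 29.8, 15.9 and 16.7 TPM (mean 20.8 ± 7.8, SD, n = 3). All 3 libraries labelled cKO lay between the lowest and the highest CTL library, and all 3 were above the CTL median. The cKO mean was 1.02 times the CTL mean and the cKO median 1.76 times the CTL median. In TMM-scaled CPM, the scale of the edgeR test below, the means were 69.5 in cKO and 75 in CTL.

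After hCG the genotypes overlapped again, over a much wider range. CTL libraries stood at 26.6, 0.585 and 6.08 TPM (mean 11.1 ± 13.7, SD, n = 3). Libraries labelled cKO stood at 0.344, 0.357 and 25.1 TPM (mean 8.59 ± 14.3, SD, n = 3). Replicate 3 of the libraries labelled cKO after hCG held 70.2 times the level of replicate 2 of the same group and was above 2 of the 3 CTL libraries. The other two were below all CTL libraries. The CTL mean was 1.29 times the cKO mean, while the CTL median was 17 times the cKO median, so the size of the difference rests on replicate 3. Over both times, 4 of the 6 libraries labelled cKO lay above the median of the 6 CTL libraries, 8.29 TPM.

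**Figure D1:**
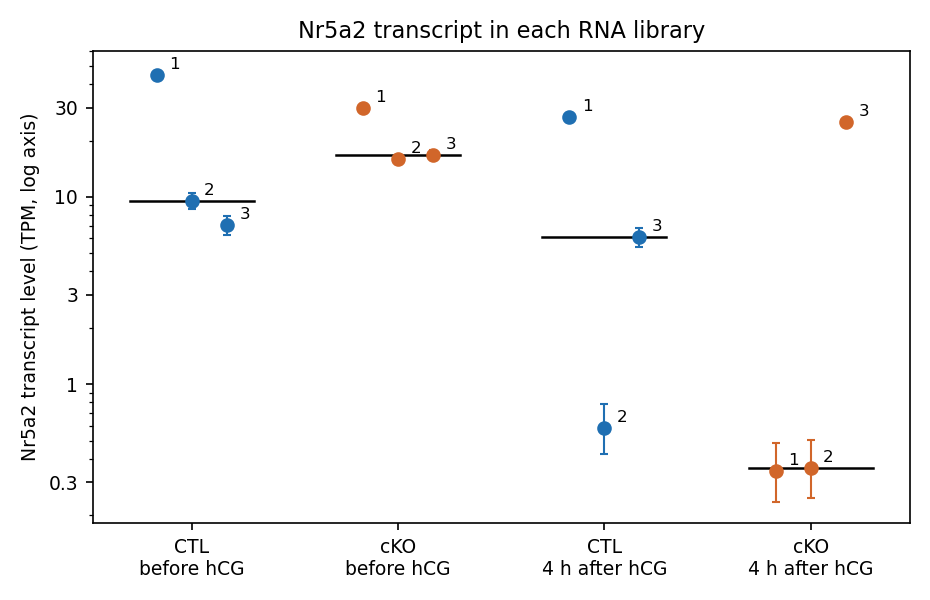
Level of the Nr5a2 transcript in each of the 12 RNA libraries (TPM, log axis), by group. Points are libraries marked with their replicate number, and black lines are group medians. Bars through the points are Poisson 95% intervals of the rounded estimated count. The libraries labelled cKO before hCG (15.9 to 29.8 TPM) lie inside the CTL range (7.05 to 44.7 TPM), and 3 libraries after hCG lie under 1 TPM.

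Counting error was small beside the widest of these gaps. Poisson 95% intervals were taken of the rounded estimated count. For the lowest library, replicate 1 of cKO after hCG, the interval ran from 0.236 to 0.487 TPM. For replicate 3 of the same group it ran from 24.1 to 26.1 TPM. A count of 3 would have corresponded to 0.0306 to 0.0787 TPM, so the transcript was above that floor in every library. The interval for the lowest library labelled cKO before hCG, 15 to 16.8 TPM, lay above that for replicate 3 of CTL before hCG, 6.24 to 7.95 TPM. Among the low libraries after hCG the intervals overlapped. That of replicate 2 of CTL ran from 0.423 to 0.788 TPM, and that of replicate 2 of cKO from 0.245 to 0.507 TPM. Counting error thus did not separate replicates 1 and 2 of cKO after hCG from the lowest CTL library. All these intervals cover counting error only, and not the division of shared reads among transcripts.

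Tests of genotype did not separate the groups. edgeR's quasi-likelihood test gave a log2 fold change, cKO minus CTL, of -0.11 before hCG (SE 2.62, 95% interval -5.25 to 5.03, Benjamini-Hochberg adjusted p = 1). After hCG the edgeR log2 fold change was -0.27 (SE 2.62, 95% interval -5.41 to 4.87, adjusted p = 1). Averaged over both times it was -0.19 (SE 1.85, 95% interval -3.82 to 3.44, adjusted p = 1). These intervals hold a deep loss as well as a strong rise, so the data do not show that the level was the same. They rest on a spread shared by all 4 groups and pooled over transcripts. Fitted on the 2 groups compared only, the log2 fold change was -0.10 before hCG (SE 1.58) and -0.28 after hCG (SE 3.14). The same edgeR fit called 2 of 32944 transcripts before hCG (0.00607%), 3 after hCG (0.00911%) and 20 over both times (0.0607%), and Nr5a2 was not among them. DESeq2 called 1028, 3877 and 3493, with adjusted p-values for Nr5a2 of 1, 1 and 0.987.

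On the scale of log2(TPM + 1), exact two-sided permutation tests did not separate the genotypes either. The cKO mean was 4.39 and the CTL mean 3.97 before hCG, a difference of 0.42 (exact permutation p = 0.6, where 3 libraries against 3 cannot give less than 0.1). After hCG the means were 1.86 in cKO and 2.76 in CTL, a difference of -0.90 (exact permutation p = 0.5). Over both times the difference was -0.24 (exact stratified permutation p = 0.83 over 400 arrangements, smallest possible p 0.005). Adjusted over the 6 permutation tests made, including those of hCG below, these values were 0.72, 0.72 and 0.83.

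**Figure D2:**
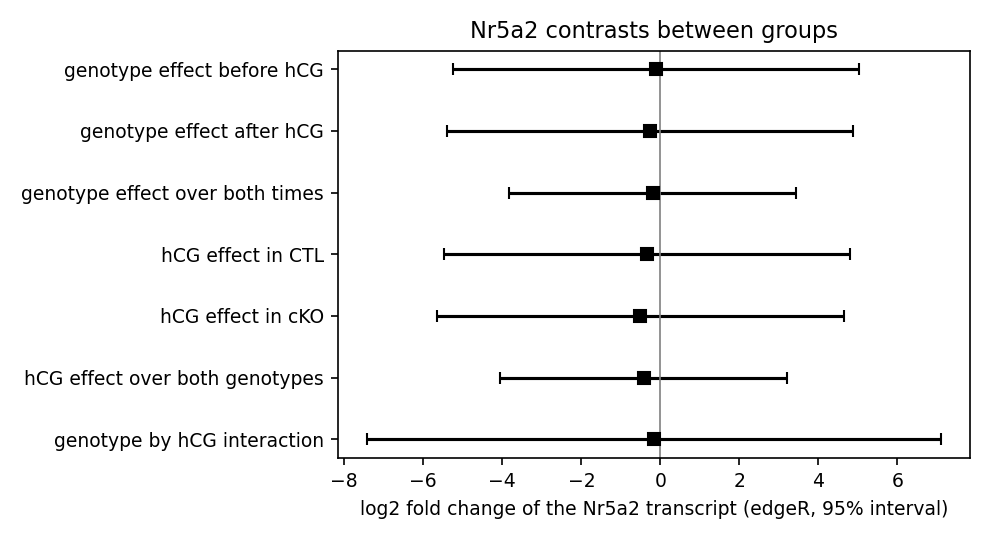
Log2 fold change of the Nr5a2 transcript in 7 contrasts (squares, edgeR) with 95% intervals (bars). Genotype effects are cKO minus CTL and hCG effects are after minus before. Every interval includes 0, and the narrowest, that of the genotype effect over both times, runs from -3.82 to 3.44.

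The direction of the genotype difference turned with single libraries. Before hCG the edgeR log2 fold change went from -0.11 to 1.31 without replicate 1 of CTL before hCG, and to 0.13 without replicate 3 of cKO before hCG (adjusted p = 1 in both). With the replicate number as a block, shared by all 4 groups, it was 0.52 (edgeR adjusted p = 1). After hCG it went from -0.27 to 1.96 without replicate 1 of CTL after hCG (adjusted p = 0.922). Without replicate 3 of cKO after hCG it was -4.40 (adjusted p = 0.566). It was 0.27 and 0.29 without replicates 1 and 2 of that group. Leaving out the 3 libraries that stand apart gave 1.06 before hCG, 1.94 after hCG and 1.5 over both times (edgeR adjusted p = 1, 0.938 and 1).

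The 3 libraries that stand apart held 26.6 to 44.7 TPM of the Nr5a2 transcript, the highest level of each of their groups. Without them CTL libraries before hCG stood at 7.05 and 9.53 TPM and those labelled cKO at 15.9 and 16.7 TPM. The remaining CTL libraries after hCG, at 0.585 and 6.08 TPM, lay within the range of those labelled cKO. Whatever sets these libraries apart, its part in the Nr5a2 level was not tested.

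**Figure D3:**
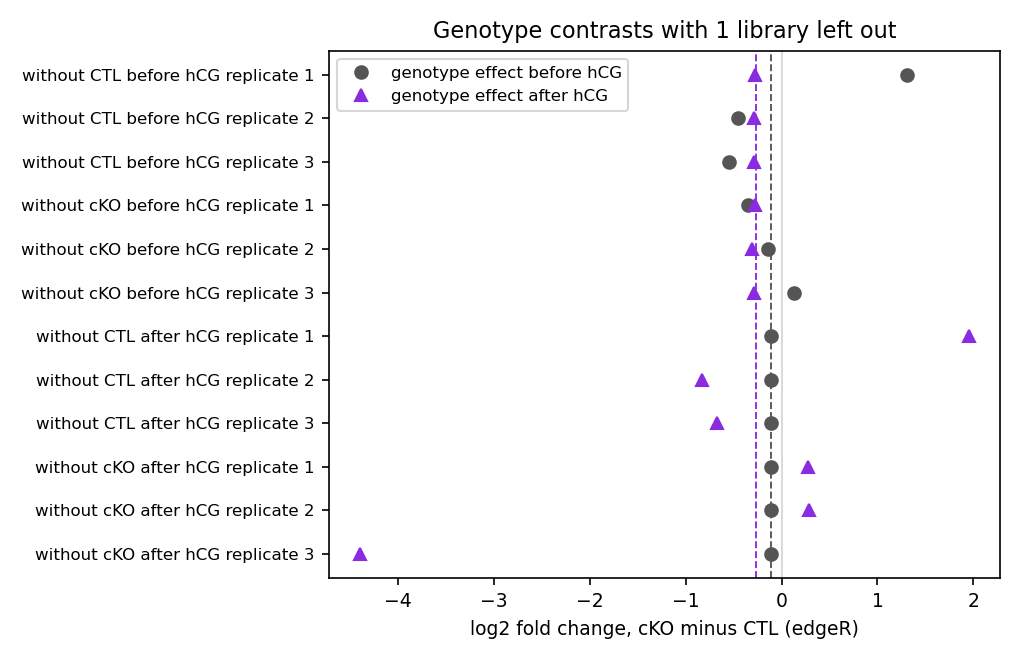
Log2 fold change of the Nr5a2 transcript, cKO minus CTL, with each of the 12 libraries left out in turn (edgeR). Circles are the effect before hCG, triangles that after hCG, and dashed lines the values with all libraries, -0.11 and -0.27. The effect after hCG moves to 1.96 without replicate 1 of CTL after hCG and to -4.40 without replicate 3 of cKO after hCG.

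Lower levels were found after the ovulatory signal in some libraries of both genotypes. Before hCG the 6 libraries ran from 7.05 to 44.7 TPM with a median of 16.3, and 4 h after hCG from 0.344 to 26.6 TPM with a median of 3.33. After hCG 4 of 6 libraries lay below the lowest library before it, and 3 of 6 lay under 1 TPM, against 0 of 6 before hCG. The median was 1.57 times higher before than after hCG in CTL and 46.8 times higher in the libraries labelled cKO. By means the ratios were 1.84 and 2.42. The cKO value rests on replicate 3 after hCG, since edgeR's log2 fold change of hCG in cKO was -4.63 without it and 0.04 without replicate 1 after hCG (adjusted p = 0.437 and 1). The ranges of both times overlapped in both genotypes.

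The hCG difference did not pass either test. In log2(TPM + 1) the mean was 4.18 before and 2.31 after hCG over both genotypes, a difference of -1.87 (exact stratified permutation p = 0.09, adjusted p = 0.54 over 6 tests). It was -1.21 in CTL (exact permutation p = 0.4) and -2.53 in the libraries labelled cKO (exact permutation p = 0.3). edgeR's log2 fold change over both genotypes was -0.42 (SE 1.86, 95% interval -4.06 to 3.21, adjusted p = 0.954). It was -0.34 in CTL (SE 2.62, adjusted p = 0.997) and -0.50 in the libraries labelled cKO (SE 2.63, adjusted p = 0.954). The edgeR value weighs the libraries with many counts more than the mean of logs does.

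With TMM scaling, the median log2 fold change of the 32944 transcripts tested was -1.45 over both genotypes, so Nr5a2 stood 1.03 above it, a gap smaller than its SE of 1.86. In CTL the median was -0.77 and in the libraries labelled cKO it was -1.52, 0.43 and 1.02 below the Nr5a2 value. The sign of the Nr5a2 value held with 3 of the scalings and turned with upper quartile scaling. There the value over both genotypes was 0.88 and the median of all transcripts -0.24. With every scaling Nr5a2 stood above the median over both genotypes, by 0.81 (RLE) to 1.12 (upper quartile). The sign of the Nr5a2 value also turned without replicate 1 of CTL before hCG, to 0.28 over both genotypes and 1.08 in CTL. edgeR called 57 transcripts over both genotypes (0.173%), 2 in CTL (0.00607%) and 0 in the libraries labelled cKO (0%). That count of 0 stood beside 6135 transcripts at an unadjusted p under 0.05 and 4137 called by DESeq2, which gave Nr5a2 an adjusted p of 0.906 in that comparison.

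Whether the hCG difference itself depended on genotype was tested as an interaction. The edgeR log2 fold change, cKO minus CTL, was -0.16 (SE 3.7, 95% interval -7.42 to 7.10, adjusted p = 1), in a fit that called 11 transcripts (0.0334%). The value was 2.07 without replicate 1 of CTL after hCG and -4.29 without replicate 3 of cKO after hCG.

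Ordered by mean log2(TPM + 1), the groups ran from cKO before hCG (4.39 ± 0.48, SD, n = 3) to CTL before hCG (3.97 ± 1.35), CTL after hCG (2.76 ± 2.06) and cKO after hCG (1.86 ± 2.47). Neighbours differed by 0.42, 1.21 and 0.90, each less than the larger SD of the pair, and every pair of neighbours overlapped. Differences between libraries of the same group made up 67.4% of the variance of log2(TPM + 1). With 12 libraries in 4 groups, most of the variance would lie within groups even if the groups did not differ. The share is therefore a description and no measure of a group effect. The highest and lowest library of a group differed 1.88-fold in cKO before hCG, 6.34-fold in CTL before hCG, 45.5-fold in CTL after hCG and 72.9-fold in cKO after hCG.

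The spread was set beside that of other transcripts. The within-group SD of Nr5a2 in log2(CPM + 1), where CPM is the count scaled to an equal library total, was 2.14. Among 4284 transcripts with a mean CPM within a factor of 2 of that of Nr5a2 (64.6 CPM), the median SD was 2.65, and 74% had a larger SD.

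The transcript was also ranked by TPM within each library. It was number 2949 of 26687 transcripts above 0 TPM in replicate 1 of CTL before hCG, the highest place, which is the top 11.1%. Before hCG its place ran from the top 11.1% to the top 38.4% of transcripts in CTL and from the top 13% to the top 23% in the libraries labelled cKO. After hCG it ran from the top 14.4% to the top 59.7% in CTL and from the top 21.6% to the top 70.6% in the libraries labelled cKO.

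The 3 libraries with the least Nr5a2 were also those in which the fewest transcripts were detected. At an equal depth of all libraries, the 3 under 1 TPM held 10457 (replicate 2 of CTL after hCG), 15077 and 16642 detected transcripts (replicates 1 and 2 of cKO after hCG), the lowest 3 of the 12. Replicate 3 of cKO after hCG held 17066, hardly more than replicate 2, at 25.1 TPM of Nr5a2. The remaining libraries held 20273 to 38205. Among them, replicate 3 of CTL held 25947 after hCG, at 6.08 TPM of Nr5a2, and 33036 before hCG, at 7.05 TPM. Over the 12 libraries, log2(TPM + 1) of Nr5a2 and the number detected had a Pearson r of 0.55 (permutation p = 0.0638) and a Spearman rho of 0.42 (permutation p = 0.178). Adjusted over the 6 values computed, both were 0.355. Without the 2 libraries farthest from the median number r was 0.44. Within the 6 libraries before hCG r was -0.25 (permutation p = 0.619) and rho -0.31 (permutation p = 0.564), and within the 6 after hCG r was 0.51 (permutation p = 0.331) and rho 0.66 (permutation p = 0.173). The part of detection in the Nr5a2 level was not tested.

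**Figure D4:**
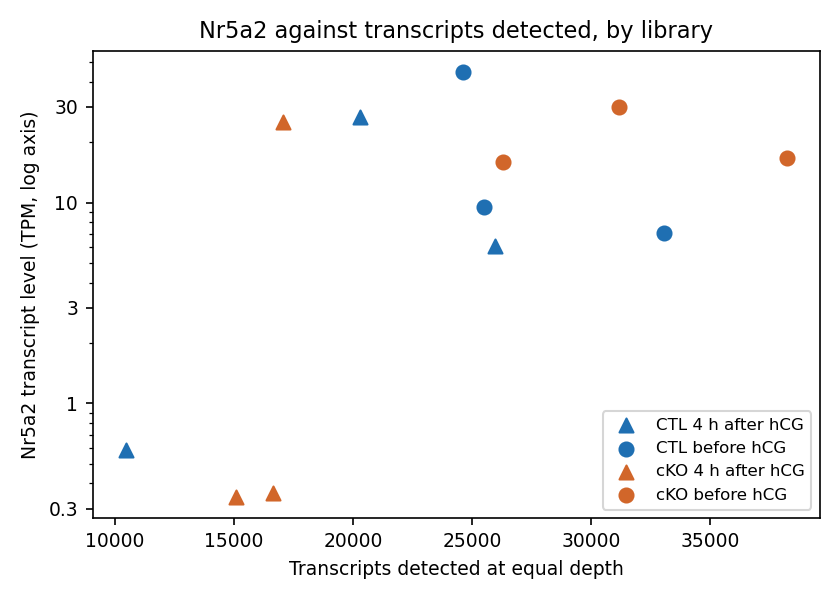
Level of the Nr5a2 transcript (TPM, log axis) against the number of transcripts detected at equal depth, 1 point per library. Blue is CTL, orange cKO, circles before hCG and triangles 4 h after hCG. The 3 libraries under 1 TPM are those with the fewest transcripts, 10457 to 16642, and 1 further library, with 17066, holds 25.1 TPM.

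The transcripts most like Nr5a2 were sought among 21261 others with a mean of at least 5 CPM, by Pearson's r of log2(CPM + 1) over the 12 libraries, as a description. The median r was 0.195, the 5th and 95th percentiles were -0.467 and 0.651, and 22 transcripts (0.103%) were above 0.9. Libraries share the number of transcripts detected and the libraries that stand apart, and the highest of so many values is high by selection. The most alike was ENSMUST00000102758 (2022 bases, r = 0.95, rho = 0.87), which stood at 0.444 and 0.229 TPM in replicates 1 and 2 of cKO after hCG, at 189 TPM in replicate 3 of that group, and was listed at 0 in replicate 2 of CTL after hCG. Next was ENSMUST00000152579 (777 bases, r = 0.94, rho = 0.95), at 2.17 TPM in replicate 2 of CTL after hCG and 76.8 TPM in replicate 3 of cKO after hCG. Both were thus low in the libraries in which Nr5a2 was low, and high in replicate 3 of cKO after hCG.

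The most opposite were ENSMUST00000159856 (543 bases, r = -0.92, rho = -0.86) and ENSMUST00000078404 (2829 bases, r = -0.92, rho = -0.82). ENSMUST00000159856 stood at 411 TPM in replicate 2 of CTL after hCG and at 88.9 and 226 TPM in replicates 1 and 2 of cKO after hCG. It was listed at 0 in replicate 3 of cKO after hCG. Its high values were not confined to the libraries lowest in Nr5a2, since replicate 3 of CTL after hCG held 86.3 TPM of it. ENSMUST00000078404 was listed at 0 in all 6 libraries before hCG and reached 74.1 and 81 TPM in replicate 2 of CTL and of cKO after hCG. The tables used here give these 4 transcripts no gene name.

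**Figure D5:**
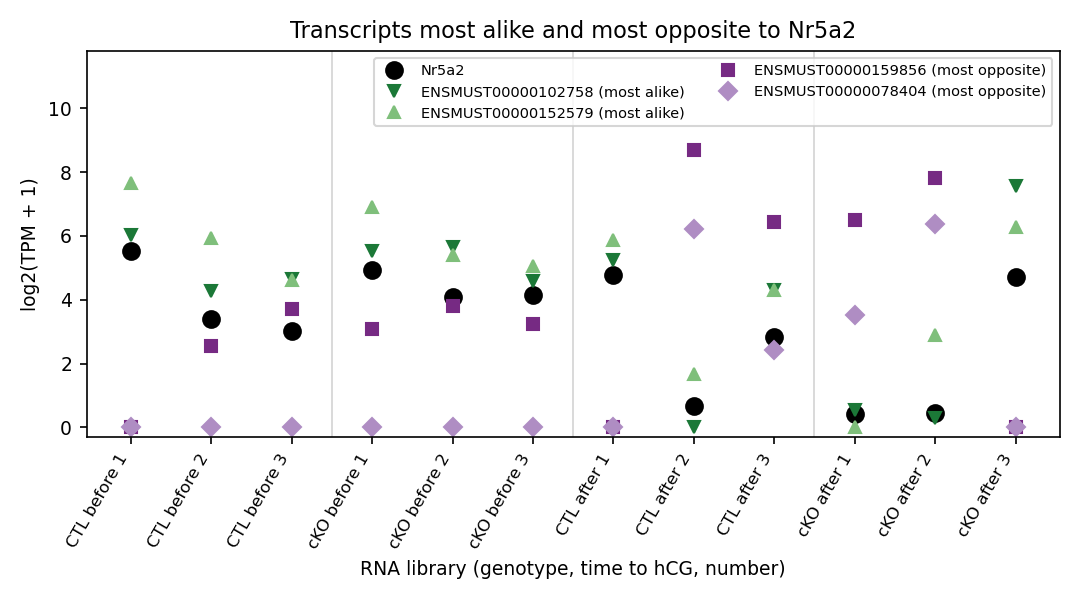
Levels of Nr5a2 (black) and of the 2 most alike (green) and 2 most opposite (purple) transcripts in each library, as log2(TPM + 1), with grey lines between groups. Replicate 2 of CTL after hCG and replicates 1 and 2 of cKO after hCG are low in Nr5a2 and the alike transcripts and high in the opposite ones, while replicate 3 of cKO after hCG is the reverse.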

How the data were processed

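The 12 deposited kallisto tables hold, per the file headers, estimated counts, TPM, length and effective length per transcript. Trimmomatic, TopHat2 2.0.12, kallisto, DESeq2 and build mm9 stand in the submitters' processing notes, with no role or order. The sources used here do not give the transcript set. Lengths are in bases, per the file headers, as other values. The number of a library comes from its table's name.

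The member and lists were chosen with earlier results of these data known. Gene lists and markers could not be used. Estimated counts were rounded. In R 4.3.3, edgeR 4.0.16 fitted all 12 libraries in 1 model of 4 groups (filterByExpr, which kept Nr5a2 among 32944 transcripts with 95.9% of counts; TMM; glmQLFTest; Benjamini-Hochberg; threshold 0.05). SE is the log2 fold change over the root of F, with the spread pooled over transcripts, and intervals use it. Permutations used log2(TPM + 1) in Python 3.11.15 with scipy 1.17.1. Detected transcripts are the expected number with a read at the smallest library's total. By rule, Nr5a2 and the 2 most and 2 least alike transcripts (mean CPM 5 or more) were named. DESeq2 1.42.0, limma 3.58.1 and other settings were alternatives. The edgeR script was tested on data simulated with less spread than these libraries have, so that test does not bear on what it could detect here. Deviations from group means correlated between same-numbered CTL and cKO libraries before hCG at r = 0.382, 0.127 and 0.153. The value of 0.382 is that of replicate 1, where both libraries stand apart from the rest. CTL replicate 3 and cKO replicate 2 before hCG had r = 0.157. Same-numbered CTL libraries before and after hCG had r = 0.262, 0.0306 and 0.194. Same-numbered cKO libraries before hCG and CTL libraries after hCG had r = 0.295, 0.0515 and 0.176. Same-numbered pairs with cKO after hCG ran from -0.0361 to 0.0616. Over all pairs from different groups, the median r was 0.0503 for the 18 same-numbered pairs and -0.0217 for the 36 others. The highest r values were those of same-numbered pairs, but the ranges overlapped. What a shared number stands for is not stated, so pairs were not established, and the main fit had no block. Depth of 9250965 to 23753060 counts sets counting error only. Peak lists were not used, for want of an mm9 gene annotation.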

Additional observations from a re-analysis of the deposited data

How the results depend on the processing

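Nr5a2 passed the threshold in none of the 7 contrasts under any of the alternatives run, 24 or 25 a contrast, and the smallest adjusted p was 0.397 (limma on log2(TPM + 0.1), hCG over both genotypes). The direction was less stable. Genotype before hCG, -0.11 in edgeR, was 0.42, 0.46 and 0.29 with limma at pseudocounts of 1, 0.1 and 5, and 1.06 without the 3 libraries that stand apart. With the replicate block, shared by all 4 groups, it was 0.52 before hCG, 0.26 after hCG and 0.39 over both times. This block turned the sign and changed no call. Without the 3 libraries it was 1.94 after hCG and 1.5 over both times. Upper quartile scaling gave 1.10, 0.66 and 0.88 for hCG in CTL, in cKO and over both. The interaction was 0.11 with RLE scaling and with DESeq2, and 0.89 without the 3 libraries. With each library left out, values ran from -0.55 to 1.31, -4.40 to 1.96 and -2.26 to 0.93 for genotype before, after and over both times, from -2.57 to 1.08, -4.63 to 0.0598 and -2.49 to 0.28 for hCG in CTL, cKO and both, and from -4.29 to 2.07 for the interaction. The cause was not tested. Calls over all transcripts ran from 0 to 1028, 3877 and 3493 for genotype before, after and over both times, to 3099, 4137 and 6653 for hCG in CTL, cKO and both, and to 3493 for the interaction, the highest in each case with DESeq2. The fit on 2 groups was not run for contrasts of 4 groups, nor was the sum over Nr5a2 transcripts. With 3 libraries a group, their spread and not depth limits the precision.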
